A study of Canis lupus familiaris with 34 samples.

Results

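The group described here is the canine osteosarcoma cell lines with a high level of KRT18, the gene for keratin 18. Its members were chosen by a measured value. A line was called KRT18-high where log2 KRT18 was above 6 and KRT18-low where it was below 4, and 4 of 27 lines were high, 21 were low and 2 lay between. Osteosarcoma is a malignant bone tumour whose cells make mesenchymal matrix. Keratin 18 is an intermediate filament protein of simple epithelia, where it pairs with keratin 8, and mesenchymal cells mostly use vimentin instead. PRRX1 is a homeobox factor of limb and skull mesenchyme, CDH11 is the cadherin of osteoblasts and fibroblasts, and COL6A3 is a chain of the interstitial collagen VI.

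The series holds 34 Affymetrix Canine_2 arrays of RNA from 31 dogs: 28 of cell lines and 6 of snap-frozen tumour tissue. Averaging both line arrays of OSCA_71 left 24 lines from primary tumours and 3 from metastases, each 1 array from 1 dog. No line was described as genetically altered or treated in culture, and treatment, age and survival labels refer to the dog. Levels are log2 of the deposited GCRMA intensity, a scale on which 1 unit is 2-fold, and a level under 5 is called background here because that value was used to leave out dim genes.

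The KRT18-high lines were primary line 4 (6.16), metastatic line 3, named OSCA_16 (7.02), primary line 7, named OSCA_12 (9.03), and metastatic line 1, named OSCA_6 (13.51). Primary line 4 came from a Saint Bernard (sex label FS) aged 5.84 at diagnosis, and metastatic line 1 from a Rhodesian Ridgeback (M) aged 2.39. Primary line 7 came from a Rottweiler (MC) aged 7.0, and metastatic line 3 from a Rottweiler (M) aged 6.31. The treatment label was AMP for primary line 4, PALL for metastatic line 1 and SOC for metastatic line 3, abbreviations the labels do not spell out, and primary line 7 carried none. The 21 low lines were 20 primary lines and metastatic line 2 (OSCA_11), and came from 9 Rottweilers, 6 Golden Retrievers, 1 Alaskan Malamute, 1 Great Pyrenees, 1 Mastiff, 2 German Shepherds under 2 spellings, and 1 dog of unknown breed. Ages of 19 of these dogs ran from 2.0 to 11.19. Of their treatment labels 10 were SOC, 3 were SOC with a remark that the dog died before starting or finishing chemotherapy, 2 were AMP, 1 was PALL and 1 was ABX, and 4 dogs carried none. Their KRT18 ran from 1.77 through a median of 2.49 to 3.83, with a mean of 2.61 ± 0.45 (SD, n = 21). The values nearest the thresholds were 6.16 in primary line 4 on the high side and 3.83 in primary line 6 (OSCA_8) on the low side. Primary line 17 (OSCA_59) at 4.09 and primary line 25 (OSCA_50) at 4.29 entered neither group. They came from a Golden Retriever (FS) aged 9.41, labelled SOC, and a Rottweiler (M) aged 3.73, labelled PALL. Tissues 1, 2 and 4 came from a Great Pyrenees, a Belgian tervuren and a Borzoi, aged 7.0, 6.1 and 11.91. Tissues 3, 5 and 6 came from Golden Retrievers aged 2.7, 6.72 and 2.67. Tissues 2, 3 and 4 were labelled SOC, and the other tissues carried no treatment label. A second KRT18 probe set also placed every high line above every low line (means 6.52 and 1.82), with primary line 4 at 3.81, metastatic line 3 at 4.85 and the highest low line at 2.44. KRT18 itself was not tested.

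**Figure D1:**
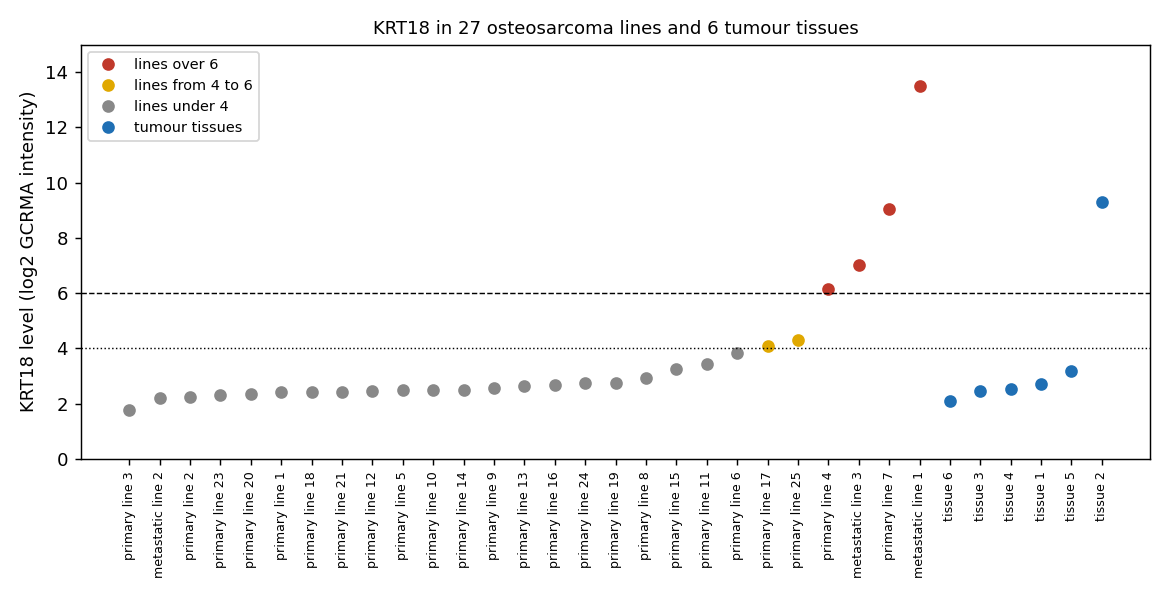
KRT18 level (log2 GCRMA intensity) in each of 27 lines, ordered by level, and in 6 tumour tissues, 1 point per line or tissue. Dashed and dotted horizontal lines mark the thresholds of 6 and 4. Red points are the 4 high lines from 6.16 to 13.51, and tissue 2 at 9.31 is the single tissue above 4.

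Because the groups were defined by a transcript on the same arrays, each test below describes a gene that differs along with KRT18 over these lines, and is no independent evidence for the split. Each group's lines came from separate dogs. A lower level in a cell line can mean fewer cells with the transcript or less of it per cell, and these cannot be told apart. The median linear intensity of an array was 8.24 ± 0.12 (SD, n = 4) in high and 8.30 ± 0.12 (n = 21) in low lines, and the difference did not pass a two-sided exact permutation test (p = 0.328). For GAPDH, control probe sets at the 3′ end exceeded those at the 5′ end by more in high lines (4.13 ± 1.27, n = 4) than in low lines (3.04 ± 0.21, n = 21; log2 units, a sign of RNA integrity; exact permutation p = 0.00474, 0.0284 after Benjamini-Hochberg adjustment over 6 measures). Metastatic line 1 was at 5.92, primary line 7 at 4.17, primary line 4 at 3.23 and metastatic line 3 at 3.21, and low lines reached 3.44. Without metastatic line 1 the exact permutation p was 0.0296 (3 against 21 lines). The 3′ to 5′ difference of actin was 1.70 ± 1.53 against 1.39 ± 1.03 on 1 pair of probe sets (exact permutation p = 0.592, n = 4 and 21) and 8.14 ± 1.12 against 8.24 ± 0.84 on another (exact permutation p = 0.825), and neither passed. The other measures of the 6 were the array median, age and survival. The part of the GAPDH difference in the results below was not tested.

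Of 7442 genes tested with limma, 96 rose and 220 fell in the KRT18-high lines at a Benjamini-Hochberg adjusted p under 0.05 and a change of at least 2-fold, which is 1.29% and 2.96% of the genes. The median difference over all genes was 0.02. In 18 genes (0.242%) every high line lay above every low line, and in 38 (0.511%) every high line lay below every low line. Of the genes that fell, 52 had no high line over log2 5. Of the genes that rose, 10 had no low line over log2 5. A gene was tested only where at least 3 lines exceeded log2 5. These 10, among them PTGS1, SLC14A1, MEIS1 and EREG, therefore entered the test through high lines or lines between. Genes with only 1 or 2 low lines over log2 5 also needed such lines to pass the filter. Among them were ADGRL3, TFPI, KDR, PDLIM3, NR1H4, SOX5, TGM2 and PECAM1. The p values of all these genes describe the difference and are no independent support for it. In primary lines alone, 2 against 20, the counts were 58 higher and 126 lower. With line origin as a covariate, chosen after seeing the data because 2 of 4 high lines but 1 of 21 low lines were metastatic, they were 59 and 145. Without metastatic line 1 they were 67 and 141.

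The epithelial side of the comparison was narrow. Besides KRT18, 8 of the listed keratins were on the array and none passed the filter on dim genes, which asked for log2 over 5 in at least 3 lines. In 7 of them no line exceeded 5. The exception was KRT8, the partner of keratin 18, which was 10.80 in metastatic line 1. It was 3.02 in primary line 4, 2.59 in primary line 7 and 3.03 in metastatic line 3. The low lines had a median of 2.32, with primary line 6 at 7.26 and every other low line at 3.43 or less. Thus 3 of the 4 high lines had KRT18 above background with KRT8 at background on its probe set. KRT7 was 3.56 to 4.47 in high lines and 3.02 to 4.65 in low lines.

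Among 24 genes of epithelial adhesion and junctions on the array, 16 had no line over log2 5. CDH1, the gene for E-cadherin that holds epithelial sheets together, was 1.95 to 2.47 in high lines and at most 2.74 in any low line. The other members at background in all lines included CLDN4, CLDN7 and F11R. In the 5 members tested, 1 rose and none fell, with a median difference of 0.27. The gene that rose was CXADR, a tight junction receptor also used by coxsackie and adenoviruses. CXADR was 8.63 in primary line 4, 9.03 in metastatic line 1, 9.12 in primary line 7 and 9.24 in metastatic line 3. The low lines ran from 2.70 through a median of 3.49 to 10.40. The high lines were thus tightly grouped, and 4 low lines were also over log2 5, primary line 6 being above all high lines. The difference was 4.65 (SE 1.12, limma adjusted p = 0.015), and the other CXADR probe sets differed by 4.42 and 4.91. The call was lost in primary lines alone and with line origin as a covariate, where the larger adjusted p was 0.15.

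EPCAM, an adhesion protein of epithelial cells, was 11.34 in metastatic line 1, 2.52 in primary line 4, 1.89 in primary line 7 and 2.68 in metastatic line 3. In low lines it ran from 1.89 through a median of 2.37 to 8.84, with 3 lines over log2 5, and it was 12.19 in primary line 25. The difference of 1.28 did not pass the test (SE 1.35, limma adjusted p = 0.65). Desmoplakin (DSP), which anchors keratin filaments at desmosomes, was 6.88 in metastatic line 1 and 2.67 to 3.52 in the other high lines. It reached 7.53 in primary line 6, and its difference was -0.06 (limma adjusted p = 0.97). EPCAM, DSP and KRT8 were therefore above background in 1 of 4 high lines, the same one, metastatic line 1.

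Of 19 epithelial regulators of transcription and splicing, 13 had no line over 5, among them GRHL2, which switches on epithelial junction genes. None of the 3 tested passed in either direction, with a median of -0.89. Of 20 epithelial surface and secreted proteins, 7 were tested and none passed (median 0.07). Of 19 genes of basement membrane and epithelial integrins, 10 were tested, 1 rose and none fell, with a median of 0.98. This was LAMB1, a laminin chain made by many cell types, at 11.47 to 12.43 in high lines and 10.15 to 11.90 in low lines, a difference of 1.12 (SE 0.23, limma adjusted p = 0.0036). LAMB1 did not pass without primary line 7 (difference 0.95) or on its most variable probe set (limma adjusted p = 0.16). ITGA2, an integrin chain that binds collagen, was 11.79, 8.92, 11.0 and 11.09 in primary line 4, metastatic line 1, primary line 7 and metastatic line 3, against 5.63 to 11.17, and did not pass (difference 2.25, SE 0.70, limma adjusted p = 0.059). SLPI, a secreted protease inhibitor, was 9.95 in primary line 4 and 2.84 to 3.39 in the other high lines, with 2 low lines over log2 5 (difference 1.11, limma adjusted p = 0.67). CXADR and LAMB1 were thus the listed epithelial genes that rose over the group. They were 1 of 5 tested adhesion genes and 1 of 10 tested basement membrane and integrin genes. Of all tested genes 1.29% rose. Genes over log2 5 in fewer than 3 lines, KRT8 among them, were not tested. Beyond CXADR and LAMB1, no gain of a listed epithelial gene was called over the group. Each of these calls was lost in 2 of 20 other settings.

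**Figure D2:**
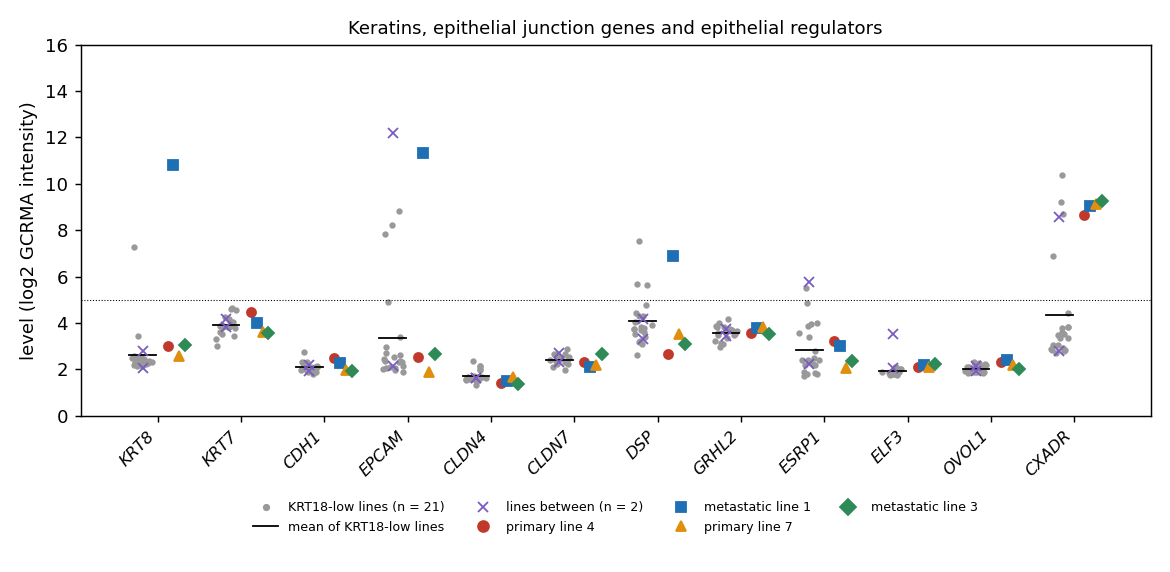
Levels (log2 GCRMA intensity) of 12 keratin, junction and epithelial regulator genes, 1 point per line. Grey points are 21 KRT18-low lines with their mean as a bar, crosses the 2 lines between, and coloured symbols the 4 high lines; the dotted line marks log2 5. KRT8, EPCAM and DSP stand above background in metastatic line 1 alone of the high lines, while CXADR is 8.63 to 9.24 in all 4.

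The 3 mesenchymal genes named with the split were lower, but not in every high line. They enter the fit and the list counts below, but no p is given because they were chosen with the split. PRRX1 was 10.07 in primary line 4, 8.31 in metastatic line 1, 2.78 in primary line 7 and 6.20 in metastatic line 3, against 7.48 to 13.04 (median 12.08) in low lines. Primary line 4 and metastatic line 1 lay inside the low range. CDH11 was 5.49, 12.79, 3.07 and 6.80 in the same order, against 11.99 to 13.64 (median 13.17). Metastatic line 1 thus kept a CDH11 level inside the low range. COL6A3 was 5.76, 3.30, 2.17 and 3.80, against 2.82 to 12.66 (median 11.06), and primary line 6 was the low line at 2.82.

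Among mesenchymal transcription factors, 20 were on the array, 12 were tested, 5 fell including PRRX1 and none rose, with a median of -1.12. Of all tested genes 2.96% fell and 1.29% rose. TWIST1, a helix-loop-helix factor of cranial and limb mesenchyme, was 3.34 in primary line 4, 2.31 in metastatic line 1, 3.43 in primary line 7 and 2.83 in metastatic line 3. The low lines ran from 4.44 through 6.28 to 8.78, so all high lines were at background and below every low line. The difference was -3.42 (SE 0.58, limma adjusted p = 0.00055), and 0.054 in primary lines alone. PRRX2, the paralogue of PRRX1, was 4.03, 4.81, 6.47 and 5.07 in the same order, against 6.18 to 9.88 (median 8.63), with only primary line 7 reaching the low range. It differed by -3.59 (SE 0.46, limma adjusted p = 1.9e-05). MSX1 and MSX2 are homeobox factors of skull and limb buds. MSX1 was 2.23 to 3.49 in high and 3.89 to 6.03 in low lines, a difference of -1.81 (limma adjusted p = 0.0016) that did not pass in primary lines alone or after adding 16 to the intensities. MSX2 was 1.93, 6.92, 3.43 and 1.86, so metastatic line 1 was again inside the low range of 4.91 to 8.93 (difference -3.29, limma adjusted p = 0.0047).

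Other repressors of E-cadherin, which TWIST1 is also known to repress, overlapped between the groups, and these were named after their values were seen. ZEB1 was 10.99 in primary line 4, 9.93 in metastatic line 1, 10.74 in primary line 7 and 10.03 in metastatic line 3, against 9.44 to 11.34 in low lines, a difference of -0.20 (SE 0.31, limma adjusted p = 0.76). ZEB2 was 7.80 to 8.50 in high and 6.52 to 9.80 in low lines, a difference of -0.33 (SE 0.45, limma adjusted p = 0.73). SNAI2 was 10.77 to 12.83 in high and 10.57 to 12.38 in low lines (difference 0.29, SE 0.30, limma adjusted p = 0.63). All 3 were well above background in every high line. SNAI1 was at background in all high and low lines (at most 3.78). On another ZEB1 probe set the difference was -1.44 and did not pass either (limma adjusted p = 0.12).

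Of 20 mesenchymal surface and cytoskeletal genes on the array, 19 were tested, 4 fell including CDH11 and none rose, with a median of -0.92. The share that fell over all tested genes was 2.96%. THY1 (CD90), a surface glycoprotein that marks stromal and bone progenitor cells, was 3.62 in primary line 4, 2.88 in metastatic line 1, 3.10 in primary line 7 and 7.02 in metastatic line 3. The low lines were 7.56 to 11.54 (median 9.91), above all high lines. THY1 differed by -5.66 (SE 0.58, limma adjusted p = 6.7e-07). FAP, a surface protease of activated fibroblasts, was 3.09 in primary line 4 and 3.14 in primary line 7, but 11.19 in metastatic line 1 and 8.54 in metastatic line 3, against 5.56 to 12.90. Its difference of -4.61 (limma adjusted p = 0.027) was lost without primary line 4 or without primary line 7, with an adjusted p up to 0.14. CD248 (endosialin) fell by 3.71 (limma adjusted p = 0.030), and lost the call in 7 of 20 other settings, among them those without primary line 4 or primary line 7 (adjusted p up to 0.13).

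Vimentin (VIM), the filament protein of mesenchymal cells, was 14.51, 14.51, 14.54 and 14.61 in the 4 high lines and 14.29 to 14.78 in low lines. The difference of -0.08 (SE 0.11, limma adjusted p = 0.71) lay well inside the range of the low lines. N-cadherin (CDH2) was 12.08, 11.27 and 11.69 in metastatic line 1, primary line 7 and metastatic line 3, and 8.35 in primary line 4, against 7.89 to 12.12 in low lines (difference 0.04, SE 0.57, limma adjusted p = 0.98).

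**Figure D3:**
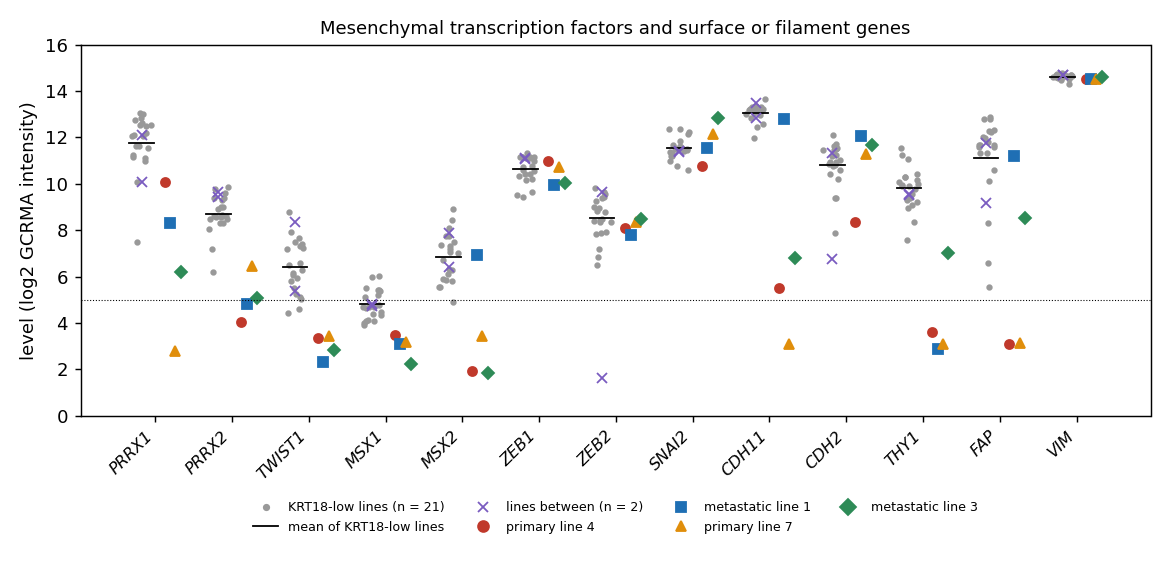
Levels (log2 GCRMA intensity) of 13 mesenchymal transcription factor, surface and filament genes, 1 point per line, with symbols as for the epithelial genes. TWIST1, MSX1 and THY1 of all 4 high lines lie below every low line, whereas ZEB1, ZEB2, SNAI2, CDH2 and VIM overlap, and CDH11 of metastatic line 1 (12.79) lies with the low lines.

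Interstitial matrix genes were lower in part. Of 33 on the array, 31 were tested, 8 fell including COL6A3 and none rose, with a median of -1.16. The share that fell over all tested genes was 2.96%. PCOLCE, which enhances the trimming of procollagen, was 9.04 in primary line 4, 8.47 in metastatic line 1, 4.52 in primary line 7 and 8.68 in metastatic line 3, against 11.61 to 12.81 (median 12.38). All high lines were below the low range, and the difference was -4.59 (SE 0.44, limma adjusted p = 1.8e-07). LOX, which cross-links collagen, was 6.40 to 8.24 in high and 8.15 to 12.84 in low lines, a difference of -3.34 (SE 0.60, limma adjusted p = 0.0011). BGN, the proteoglycan biglycan, was 10.18, 9.35, 4.39 and 9.51 against 10.09 to 13.38 (difference -3.99, SE 0.64, limma adjusted p = 0.00032). SFRP2, a secreted Wnt modulator, differed widely among the high lines: 4.53 in primary line 4, 14.25 in metastatic line 1, 2.76 in primary line 7 and 10.18 in metastatic line 3, against 10.47 to 14.80. Its difference of -5.19 (limma adjusted p = 0.0096) was lost without primary line 4 or without primary line 7, with an adjusted p up to 0.10.

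COL6A1, the partner chain of COL6A3, was 10.08 in primary line 4, 4.15 in metastatic line 1, 8.81 in primary line 7 and 10.60 in metastatic line 3, against 9.33 to 12.69. It fell by 2.90 (limma adjusted p = 0.015), and did not pass without metastatic line 1 (adjusted p up to 0.14). COL5A1 at 7.75 and FBN1 at 9.70 were lowest in primary line 4, and neither call (-1.73 and -1.46) held without that line. The main fibrillar collagens did not pass. COL1A1 was 11.88 in primary line 4 and 13.40 to 13.87 in the other high lines, against 12.59 to 14.08 (difference -0.56, SE 0.25, limma adjusted p = 0.20). COL1A2 was 11.13 in primary line 4 and 14.15 to 14.31 in the others (limma adjusted p = 0.065), and COL3A1 was 11.24 and 14.44 to 14.77 (limma adjusted p = 0.35). Low collagen I and III was thus seen in primary line 4 alone of the high lines. Fibronectin (FN1) was 12.82 to 14.11 in high and 12.05 to 14.21 in low lines (difference -0.09, SE 0.32, limma adjusted p = 0.91).

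The bone lineage list was mostly dim in both groups. Of 16 genes, 8 were tested, 2 fell and none rose, with a median of -0.80, while 2.96% of all tested genes fell. DLX5, a homeobox factor of osteoblasts, was 2.56 in primary line 4, 4.98 in metastatic line 1, 1.47 in primary line 7 and 1.73 in metastatic line 3, against 4.57 to 8.84 (difference -4.09, SE 0.58, limma adjusted p = 6.2e-05). OMD, a leucine-rich proteoglycan of bone, was 2.33, 2.04, 2.24 and 2.10 against 6.05 to 11.91 (median 9.59), at background in all high lines and above it in every low line (difference -7.23, SE 0.67, limma adjusted p = 1.6e-07). The defining osteoblast gene IBSP was at background in all lines of both groups, at most 4.84. ALPL was 2.40 to 2.70 in high lines, with a low-line median of 2.74, and RUNX2 was 3.01 to 4.51 against 3.38 to 5.98. SPP1 (osteopontin) was 2.64 to 4.63 in high lines, and ran from 2.74 through a median of 3.68 to 9.68 in low lines, of which 8 were over log2 5. ALPL was over 5 in 3 low lines, with 8.65 the highest. None of these 3 passed the test (limma adjusted p = 0.70 for ALPL, 0.46 for RUNX2 and 0.49 for SPP1).

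**Figure D4:**
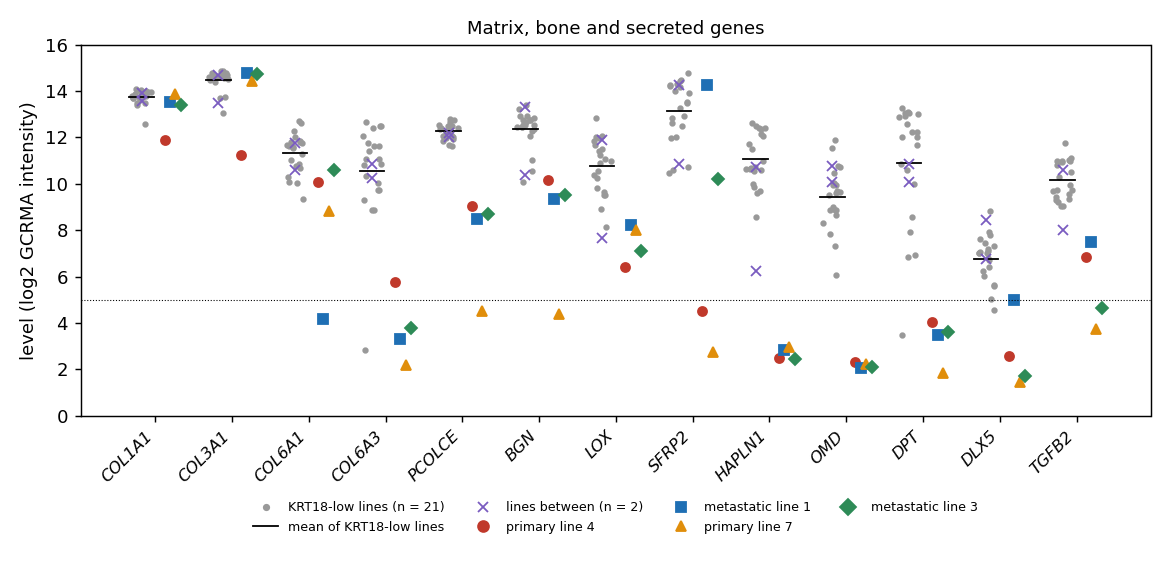
Levels (log2 GCRMA intensity) of 13 matrix, bone and secreted genes, 1 point per line, with symbols as for the epithelial genes. HAPLN1, OMD, PCOLCE and TGFB2 of all 4 high lines lie below every low line, while COL1A1 and COL3A1 are low in primary line 4 alone.

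The 12 largest fitted decreases, whose order is not read because most high lines were at background there, were HAPLN1, DPT, CCBE1, OMD, SFRP4, ACKR3, THY1, IRX5, SLIT3, SFRP2, EPDR1 and ASPN, most of them secreted or surface proteins of connective tissue. HAPLN1, a link protein that fixes hyaluronan to proteoglycans, was 2.48 in primary line 4, 2.85 in metastatic line 1, 2.96 in primary line 7 and 2.46 in metastatic line 3, against 8.55 to 12.64 (median 10.70). The gap between the groups exceeded the whole low range, with a difference of -8.38 (SE 0.57, limma adjusted p = 3.7e-10). CCBE1, a secreted factor of lymphatic growth, was 1.80 to 2.55 against 5.49 to 11.39 (difference -7.37, limma adjusted p = 1.4e-06). SFRP4, a Wnt modulator, was 1.79 to 2.15 against 3.12 to 12.77 (difference -6.67, limma adjusted p = 0.00036). In all 3 genes every high line was at background.

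SLIT3, a secreted guidance protein, was 2.66 to 3.73 in high and 6.13 to 10.66 in low lines (difference -5.23, limma adjusted p = 1.9e-05). IRX5, a homeobox factor, was 6.01 in primary line 4 and 2.01 to 3.03 in the other high lines, against 6.45 to 9.82 (difference -5.26, limma adjusted p = 1.4e-06). EPDR1 was 3.71 to 5.94 against 7.75 to 11.68 (difference -5.12, limma adjusted p = 9.3e-07). In these 3 genes, too, no high line reached the low range. DPT, the matrix protein dermatopontin, was 1.85 to 4.06 in high lines and 3.49 to 13.25 in low lines, and primary line 6 was the low line at 3.49 (difference -7.66, limma adjusted p = 0.00056). ACKR3, a scavenging chemokine receptor, was 2.54 to 7.34 against 6.93 to 13.35 (difference -5.79, limma adjusted p = 0.00012). ASPN, another small proteoglycan, fell by 5.11 but at a limma adjusted p of 0.048 that was lost in 11 of 20 other settings.

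TGFB2 was the 1 of 15 tested TGF-beta response genes that fell, against 2.96% of all tested genes, and none rose (median 0.35). It encodes a ligand of that pathway and was 6.86 in primary line 4, 7.48 in metastatic line 1, 3.74 in primary line 7 and 4.65 in metastatic line 3, against 9.04 to 11.74. All high lines were below the low range (difference -4.48, SE 0.53, limma adjusted p = 5.6e-06).

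Of the 96 genes that rose, 2 were among the 25 tested members of the epithelial lists, while 1.29% of all tested genes rose. The 12 largest increases were CA2, PDLIM3, ADGRL3, TFPI, RGS17, SLC14A1, PTGS1, BDNF, TGM2, NR1H4, MMP1 and CXADR. PTGS1 (cyclooxygenase 1) was 5.56 in primary line 4, 8.63 in metastatic line 1, 10.11 in primary line 7 and 6.25 in metastatic line 3, against 1.78 to 4.27 (median 2.49). All low lines were at background and all high lines above it, a difference of 5.11 (SE 0.48, limma adjusted p = 1.6e-07). PTGS1 passed the filter on dim genes only through the high lines, so this p gives no support of its own. BDNF, a neurotrophin, was 8.48, 8.75, 9.29 and 8.13 in the same order, against 2.15 to 6.84 (median 3.14), again without overlap (difference 5.04, SE 0.62, limma adjusted p = 9.5e-06). RGS17, a regulator of G-protein signalling, was 8.63 to 10.61 against 1.69 to 7.93, with primary line 6 the highest low line (difference 5.26, limma adjusted p = 0.0012). A second BDNF probe set was dim, with no line over 5, and differed by 1.70.

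ADGRL3 (latrophilin 3) was 6.68 to 10.91 in high lines, against a low-line median of 2.01 and a highest low line of 9.24 (difference 5.83, limma adjusted p = 0.00033). TFPI, an inhibitor of tissue factor, was 13.05 in primary line 4 and 5.70 to 7.34 in the others, against 1.43 to 5.76 (difference 5.27, limma adjusted p = 0.0001). Other increases left out 1 or more high lines. CA2 (carbonic anhydrase 2) was 12.55, 13.87 and 13.01 in primary line 4, primary line 7 and metastatic line 3, but 3.22 in metastatic line 1, and 12.84 in the highest low line, primary line 6. Its difference of 6.79 (limma adjusted p = 0.033) was lost without any of the 3 lines that had it, with an adjusted p up to 0.13. PDLIM3, SLC14A1 and NR1H4 were the converse, high in metastatic line 1, primary line 7 and metastatic line 3 but 2.56, 2.55 and 1.76 in primary line 4.

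PDLIM3, a muscle Z-disc protein, was 12.53 in metastatic line 1 and at least 9.99 in primary line 7 and metastatic line 3, against 2.10 to 7.37 in low lines (difference 5.84, limma adjusted p = 0.00067). SLC14A1, a urea transporter, was 8.28, 9.80 and 11.18 in those lines, against 2.14 to 4.58 (difference 5.12, limma adjusted p = 0.00019). NR1H4, a bile acid receptor, was 6.57, 9.69 and 8.30, against 1.18 to 5.59 (difference 4.81, limma adjusted p = 0.00037). These 3 calls were lost in primary lines alone, where primary line 4 is 1 of 2 high lines (limma adjusted p = 0.16, 0.063 and 0.054). MEIS1 and SOX5 had the same distribution. MEIS1, a homeobox partner of HOX proteins, was 2.46 in primary line 4 and 7.09 to 8.07 in the others, against 2.55 to 3.39 in low lines (difference 3.26, limma adjusted p = 0.00015). SOX5, a cartilage factor, was 2.47 and 5.36 to 7.31, against 2.09 to 5.13 (difference 2.64, limma adjusted p = 0.0025). Neither passed in primary lines alone (limma adjusted p = 0.076 and 0.27). TGM2 (transglutaminase 2) was 9.45 in primary line 4 and 12.51 in metastatic line 1, but 2.68 in primary line 7 and 4.81 in metastatic line 3, against 1.83 to 6.25 (difference 4.86, limma adjusted p = 0.0023, and 0.054 in primary lines alone). MMP1, a collagenase, was 8.16, 10.32 and 9.92 in primary line 4, metastatic line 1 and primary line 7 and 2.91 in metastatic line 3, against 2.00 to 8.90. Its call (difference 4.67, limma adjusted p = 0.012) was lost without metastatic line 1 or without primary line 7 (adjusted p up to 0.089).

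**Figure D5:**
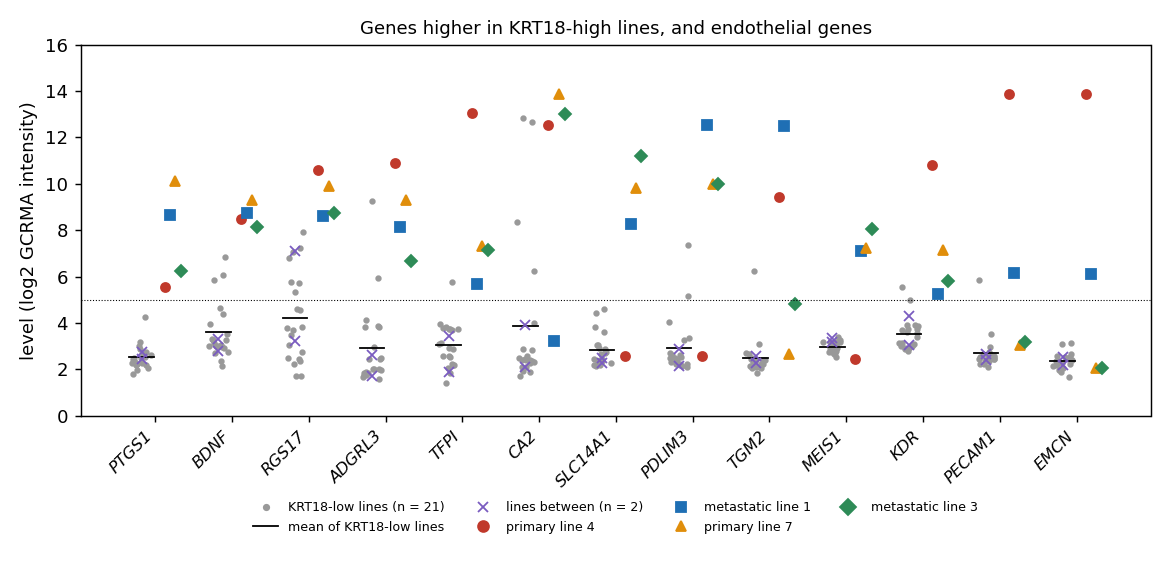
Levels (log2 GCRMA intensity) of 13 genes higher in KRT18-high lines or of endothelial cells, 1 point per line, with symbols as for the epithelial genes. PTGS1 and BDNF of all 4 high lines lie above every low line, PDLIM3, SLC14A1 and MEIS1 are at background in primary line 4, and PECAM1 and EMCN reach 13.88 in primary line 4.

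Genes of other cell types were examined because keratin 18 is not limited to glandular epithelium. Of 17 endothelial genes on the array, 6 were tested, 2 rose (PECAM1 and KDR) and none fell, with a median of 1.45. The share that rose over all tested genes was 1.29%. PECAM1 and KDR passed the filter on dim genes only with the high lines, so their calls give no support of their own. KDR, a VEGF receptor, was 10.81 in primary line 4, 5.26 in metastatic line 1, 7.12 in primary line 7 and 5.81 in metastatic line 3, against 2.79 to 5.53 (difference 3.73, SE 0.58, limma adjusted p = 0.00022). PECAM1 (CD31) was 13.88 in primary line 4, 6.16 in metastatic line 1 and 3.05 and 3.19 in the other high lines, against 2.10 to 5.85. Its difference of 3.87 (limma adjusted p = 0.028) became 0.78 at the lowest over all settings. The call was lost without primary line 4 or without metastatic line 1. On each other PECAM1 probe set only 1 line was over log2 5. EMCN (endomucin), which was over background in too few lines to be tested, was 13.88 in primary line 4, 6.10 in metastatic line 1 and 2.06 and 2.07 in the others. CDH5 and VWF, also endothelial genes, were at background in primary line 4, at 3.88 and 3.02. The same held in every other high line (at most 4.03 and 3.46). The mean level of the endothelial list was 6.41 in primary line 4 and 3.38 to 3.96 in the other high lines, against 2.92 to 3.79 in low lines. EGFL7 was 10.22 and FLT1 9.89 in primary line 4, and neither passed over the group (limma adjusted p = 0.11 and 0.78).

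Smooth muscle and pericyte genes (18 on the array, 10 tested) had none called and a median of -0.52, which was 0.59 without primary line 4. Their mean level was 7.43 in primary line 7 and 7.54 in metastatic line 3, above every low line (5.70 to 7.31), 6.92 in metastatic line 1, and 5.32 in primary line 4, below every low line. Mesothelial genes, whose normal cells carry keratin 18, had 1 of 7 tested and none called. Their mean level was 5.0 in metastatic line 1, above every low line (2.72 to 4.38), and 3.18 to 3.54 in the other high lines. There GPM6A, a membrane glycoprotein that neurons also carry, was 10.66, against at most 4.00 in low lines. The mesothelial markers UPK3B and WT1 were at background in metastatic line 1, at 2.98 and 2.40. The part of this list in the results was not tested. Of 18 blood cell genes, 3 were tested and none called, with a mean level of 2.46 to 3.40 in high and 2.46 to 3.38 in low lines. In 3 tested melanocyte genes, 2 adipocyte genes and 1 skeletal muscle gene none was called. In 16 tested G2/M genes, a sign of proliferation, none was called and the median was 0.84. The 9 tested interferon response genes had none called and a median of 0.79, and the highest low line lay above all high lines in their mean level (10.26 against 6.12). Of 4 tested cartilage genes, HAPLN1 fell and SOX5 rose, with a median of -2.66. Among 5 tested HOX genes HOXB7 rose at a limma adjusted p of 0.049, lost in 13 of 20 other settings. Over all tested genes 1.29% rose and 2.96% fell. At these shares, the absence of calls in lists this small does not set any of them apart.

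Most of what set primary line 4 and metastatic line 1 apart from the low lines was their own, whereas primary line 7 and metastatic line 3 shared a large part. For each line, genes were counted that lay at least 1 log2 unit outside the whole range of the low lines, which is a description with no test. Primary line 4 had 232 such genes above and 467 below, metastatic line 1 had 105 and 256, primary line 7 had 50 and 94, and metastatic line 3 had 32 and 64. Each low line set against the other low lines had a median of 11 above, with a highest count of 88, and a median of 9 below, with a highest count of 90. Of the genes above, 320 belonged to 1 high line, 29 to 2, 11 to 3 and 2 to all 4. Of those below, 603 belonged to 1 line, 81 to 2, 24 to 3 and 11 to all 4. The genes above in all 4 were BDNF and PTGS1. Those below in all 4 were CCBE1, EPDR1, HAPLN1, LRIG3, MAB21L1, OMD, PCOLCE, SLIT3, SNCAIP, TGFB2 and TWIST1.

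Primary line 7 and metastatic line 3, the Rottweiler lines, were the most alike of the high pairs. Their levels correlated over the 7442 tested genes at r = 0.966, which 5 of 210 low-line pairs reached, and they shared 21 genes above and 44 below the low range. The other high pairs correlated at 0.786 to 0.876. Low-line pairs ran from 0.750 to 0.976 with a median of 0.899, and the median over pairs of 1 high and 1 low line was 0.848. These correlations are across genes within pairs of arrays, so all pairs share the same gene means. Primary line 4 was the least like the low lines, at a median of 0.792, and metastatic line 3 the closest at 0.878. By this measure KRT18-high lines were not nearer to each other (median 0.835) than to low lines. Counting primary line 7 and metastatic line 3 as 1 line by averaging them, an alternative chosen after seeing the data, left 95 genes higher and 205 lower.

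Each high line also had genes far above every other high or low line, the next of which is given in parentheses. Primary line 4 stood apart through PECAM1, TFPI, IL6 (13.47, next line 7.80), LIPA (10.79, next 5.13) and FGF14 (10.85, next 5.33). IL6 is an inflammatory cytokine and LIPA the lysosomal acid lipase. Metastatic line 1 stood apart through CFI (11.51, next 7.69), CPXM1 (10.20, next 6.47), NXPH2 (11.22, next 7.64), DLA-DRA (9.54, next 6.08) and DLA-DMA (10.67, next 7.52). CFI is a complement regulator, and both DLA genes belong to MHC class II presentation. The class II invariant chain CD74 was 9.53 there and 2.75 to 2.88 in the other high lines. Primary line 25, which lay between the groups and was not ranked, also had DLA-DRA (8.89) and CD74 (9.17).

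Primary line 7 had RGS1 (10.34, next 5.77), UNC45B (9.59, next 5.48), HTR7 (8.36, next 5.61), ENO3 (11.37, next 9.11) and TRABD2A (8.14, next 6.51). On the other probe sets of UNC45B and HTR7 no line was over log2 5. UNC45B is a myosin chaperone and ENO3 the muscle form of enolase, while the skeletal muscle list as a whole had a mean level of 3.0 in this line, against 2.17 to 3.20 in low lines. Metastatic line 3 had DES (9.52, next 5.81), PTGDS (9.01, next 6.15), KCNMB1 (8.12, next 5.95), EREG (9.50, next 7.66) and RASL11A (12.79, next 11.04). DES encodes the muscle filament desmin and EREG is an EGF receptor ligand. EREG was called over the group (difference 3.62, limma adjusted p = 0.00022) although metastatic line 1 was at 3.26, inside the low range of 2.13 to 4.23.

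KRT18 level and gene levels were also set against each other over all 27 lines, including the lines between. The genes with the highest Pearson r with KRT18 were PTGS1 (0.891), PDLIM3 (0.839), MEIS1 (0.821), SOX5 (0.802) and TGM2 (0.790). The lowest were THY1 (-0.865), COL6A1 (-0.861), IRX5 (-0.839), HAPLN1 (-0.822) and PCOLCE (-0.819). The 27 points share the arrays on which KRT18 was read, and 4 of them hold nearly all of its range, so these values rank genes and are no test.

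The lines near the threshold differed in how far they resembled the high lines. Primary line 17, at 4.09, had HAPLN1 at 10.73, THY1 at 9.53, CDH11 at 13.47, PTGS1 at 2.43 and BDNF at 2.80, all within the low range. Primary line 25, at 4.29, had CDH11 at 12.85, THY1 at 9.55 and TWIST1 at 8.34, also within the low range, but HAPLN1 at 6.23 lay below it. It also had EPCAM at 12.19, CXADR at 8.55 and the epithelial splicing regulator ESRP1 at 5.77, with ZEB2 at 1.61, below every high and low line, and ALPL at 9.90. EPCAM was at background in 3 of the 4 high lines and ESRP1 in all 4 (at most 3.22), so these epithelial genes were seen here outside the high group.

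Primary line 6, at 3.83 the low line nearest the threshold, was the highest low line for KRT8, CXADR, CA2, RGS17, TGM2, HOXB7 and DSP, and the lowest for CDH11, COL6A3 and DPT. It was the highest low line for 19.8% of the 96 genes that rose and the lowest for 16.4% of the 220 that fell, against 9.76% and 8.56% of all tested genes. Primary line 23, with KRT18 at 2.33, had 18.8% and 11.4%, against 13.5% and 9.37%. These shares are descriptions. Without primary line 6, an alternative chosen after seeing the data, 111 genes were higher and 252 lower.

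Tumour tissues did not enter the rule. KRT18 was 9.31 in tissue 2 and 2.10 to 3.18 in the other 5. Tissue 2 also had the highest KRT8 of the tissues, 4.70, which is under the background level, and EPCAM at 6.86, second to tissue 5 at 8.78. In tissue 2 PRRX1 was 11.01, CDH11 13.56, COL6A3 10.85, THY1 10.94 and TWIST1 7.64, all within the range of the KRT18-low lines. TWIST1 was still the lowest of the tissues (7.70 to 10.49 in the others). HAPLN1 was 7.62 in tissue 2, below every low line, and 4.5 in tissue 3. Tissue 2 was the lowest tissue for 20 of the 220 genes that fell in high lines, a smaller share than its 1624 of all 7442 tested genes (21.8%). It was the highest tissue for 16 of the 96 genes that rose, and for 1077 of all 7442 (14.5%). PTGS1 was 3.82 and BDNF 3.45 there. Tissues can hold other cells than tumour cells, and their part in these levels was not tested. The tissue of OSCA_71 had KRT18 at 3.18 and its line at 2.73. For OSCA_73 the tissue was at 2.10 and the line at 2.34.

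Among the labels of the dogs no difference passed after adjustment. Survival, whose time unit the labels leave unstated, was 1.18 for primary line 4, 0.36 for metastatic line 1, 1.15 for primary line 7 and 1.97 for metastatic line 3. For 17 low lines with a value it ran from 0.23 through a median of 7.30 to 64.01. The high mean was 1.16 ± 0.66 (SD, n = 4) and the low mean 10.76 ± 14.97 (n = 17; exact permutation p = 0.0180, two-sided, 0.054 after Benjamini-Hochberg adjustment over 6 measures). The groups overlapped, and treatment labels differed between the dogs. In primary lines alone the exact permutation p was 0.129 (2 against 17), and within title prefix 2 it was 0.0643 (3 against 13). Age at diagnosis was 5.38 ± 2.05 in high and 7.56 ± 2.36 in low lines with a label (n = 4 and 19, exact permutation p = 0.122). Titles carried 1 of 3 prefixes. Prefix 1 held 1 high and 3 low lines, prefix 2 held 3 and 17, and prefix 3 held 0 and 1. Within prefix 2, which leaves out primary line 4, 122 genes were higher and 205 lower, of which 54 and 139 were shared with the comparison over all lines.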

How the data were processed

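Transcript levels of canine osteosarcoma lines and tissues were measured on Affymetrix Canine_2 arrays. The authors deposited an intensity per probe set, computed with GCRMA per the submitters' processing notes. GCRMA's version was not given in the sources used here. Deposited intensity values ran from 1.06 to 39091, so log2 was taken without an offset. Arrays have no read depth, and their number limits the precision.

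Of 43035 probe sets, 111 controls were left out and 29264 had a single symbol in the platform annotation. Probe sets over log2 5 in at least 3 lines were kept, and each tested gene was represented by the brightest of these (highest mean over lines). A brighter probe set can thus have been left out by the filter. Without the filter, the probe sets read for TGM2, NR1H4 and PECAM1 differed by 1.18, 2.78 and 2.67, and PECAM1 was not called. Both OSCA_71 line arrays were averaged. KRT18-high and KRT18-low lines were compared with limma 3.58.1 (lmFit and eBayes, no covariate) in R 4.3.3, with Benjamini-Hochberg adjustment over 7442 genes. Genes with an adjusted p under 0.05 and at least a 2-fold change were called. KRT18 was left out, and PRRX1, CDH11 and COL6A3 enter the counts but are described without a test. Labels and array quality were compared with exact permutation tests (scipy 1.17.1, Python 3.11.15). The fit was checked on simulated data.

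The members, the markers and the 21 gene lists were chosen with earlier results of these data known. Named were the 12 largest changes in each direction, all keratins, from each list the 3 genes that differed most, the 5 highest and 5 lowest correlations with KRT18, and 5 genes particular to each high line. Other list members and defining markers were named after their values were seen. Replicate numbers follow accession order. Normalization, filter, offset, probe set choice, title prefix, origin and single lines were varied. No sequences were used here.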

Additional observations from a re-analysis of the deposited data

Results flagged for a closer look

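In 15 of 85 groups of values examined, 1 sample lay far from the others of its group by Dixon's criterion. Chance meets it in about 5% of groups that are independent and not chosen by their values. Many of these genes were named by or after their values and share the same arrays, so that rate is no yardstick here. Among the KRT18-high lines, primary line 4 was far below the other 3 for COL1A2 (11.13), COL3A1 (11.24), COL5A1 (7.75), FBN1 (9.70) and SPARC (13.15), all matrix genes. Metastatic line 1 was far above them for KRT8 (10.80) and EPCAM (11.34) and far below for CA2 (3.22) and MAB21L1 (1.53), the last being at background in all 4. Primary line 7 was far below for BGN (4.39) and PCOLCE (4.52) and far above for UNC45B (9.59). Metastatic line 3 was never the outlying line. Among the 6 tissues, tissue 2 was far above the others for KRT18 (9.31) and KRT8 (4.70), and tissue 6 for PTGS1 (8.83).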

How the results depend on the processing

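No named call changed direction in any of 20 other settings, and 27 of the 51 named genes called over the group kept the call wherever tested. With a filter at log2 7 only 40 of the 51 were tested. EREG, KDR and PTGS1, among the 27, were not tested there. On the same genes, 14 higher and 56 lower calls held throughout. The count of higher genes was 63 with a filter at log2 7, 58 in primary lines alone, 436 with array weights and 59 with line origin as a covariate. The count of lower genes was 126 in primary lines alone, 489 with array weights and 145 with line origin as a covariate. Without 1 of the 4 high lines, higher genes ranged from 67 to 127 and lower genes from 141 (without metastatic line 1) to 259 (without metastatic line 3). The cause of these changes was not tested. Primary lines alone and single lines left out also mean fewer lines, and the counts moved both up and down among these settings. Origin as a covariate, primary line 7 and metastatic line 3 averaged, metastatic line 2 left out, primary line 6 left out, and log2 of survival or survival in primary lines were chosen after seeing the data.

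Several median differences of lists moved. Without the filter on dim genes they became 0.09 for epithelial regulators, 0.12 for basement membrane and integrins, -0.40 for mesenchymal transcription factors, -0.04 for bone, -0.05 for cartilage and 0.10 for blood cell genes, since dim members then entered. With 16 added to the intensities they were -0.51 for epithelial regulators, -0.53 for mesenchymal factors, -0.40 for bone and 0.71 for blood cell genes. In primary lines alone they were -1.34, -0.45, -1.13 and 0.36 for the same 4 lists. The bone median was -2.88 with a filter at log2 7, and the melanocyte median 1.27 with genes read from their most variable probe set by interquartile range. With array weights the blood cell median was -0.40, the G2/M median 2.18 and the interferon median 2.05. The blood cell median, over 3 genes, was also 0.66 with title prefix as a covariate, 0.50 within prefix 2, 0.38 with origin as a covariate and 1.34 with primary line 7 and metastatic line 3 averaged.

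Leaving out each high line in turn gave medians of -1.26 to -0.83 for epithelial regulators, 0.38 to 1.40 for blood cell genes, 0.49 to 1.65 for interferon genes and -0.23 to 0.48 for TGF-beta genes. The sign also turned for epithelial adhesion (-0.69 to 1.21) and smooth muscle (-0.78 to 0.59), while mesenchymal factors (-1.46 to -0.75) and interstitial matrix (-1.48 to -0.36) stayed below 0. The survival difference was -9.60 in primary lines alone, as over all lines, with an unadjusted exact permutation p of 0.129 (2 against 17 lines) in place of 0.0180.

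No paired analysis was possible because replicate numbers follow accession order and the dogs with a line and a tissue give no pair across the compared groups. Keeping both OSCA_71 arrays with the dog as a block (pair correlation 0.18) gave 82 higher and 199 lower genes. Calls rest on 4 high lines, 1 array each, and signals near background give no reliable order.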
